A study of Mus musculus with 6 samples.

Results

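The genes that build sterols and fatty acids were examined in 6 RNA sequencing libraries of mouse regulatory T cells (Tregs). The set held 33 genes of 47069 with an Ensembl gene ID in the deposited tables, chosen by name: 18 enzymes of the mevalonate and cholesterol pathway (the sterol branch), 10 enzymes that make, desaturate and elongate fatty acids (the fatty acid branch) and 5 genes that control both through the SREBP transcription factors. The rule used names only, although earlier results of these data were known when it was written, and all 33 passed the filter on low values, a mean of at least 1 FPKM (fragments per kilobase, a level per gene length and depth, as the authors deposited it). Tregs were sorted as CD4+GFP+CD62Lhigh cells from lymph node and spleen and then activated with Dynabeads. The cells labelled cKO came from Foxp3CreNoc4lfl/fl mice, in which both alleles of the ribosome assembly gene Noc4l are floxed, and those labelled Het from Foxp3CreNoc4l+/fl mice, with 1 floxed allele. Both genotypes carried Cre under Foxp3 control, which directs deletion to the Treg lineage. At 72 h there were the libraries cKO 2, cKO 4, Het 1 and Het 3, and at 48 h the libraries cKO 2 and Het 1. One passage of the labels' protocols gives the cKO mice the same allele pair as the Het mice, while each sample's own label gives fl/fl. Replicates 1 and 2 of both times were in one deposited table and replicates 3 and 4 in another. The tables may have been normalised separately, so every ratio and test was formed within a table, and a remark that levels overlapped sets them across both. The sources used here do not give the age of the mice or whether libraries came from separate animals, so p-values measure only the spread between these libraries, which may be technical.

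Cells make cholesterol from acetyl-CoA through mevalonate, isoprenoids, squalene and lanosterol, and make palmitate from the same acetyl-CoA through malonyl-CoA. SREBP2, encoded by Srebf2, mainly drives the sterol genes, and SREBP1, encoded by Srebf1, mainly the fatty acid genes. Scap escorts both to the Golgi for activation when membrane sterol is low, and Insig1 and Insig2 hold Scap back when sterol is plentiful. T cells raise this program when they are activated, since dividing cells need membrane lipid, and in Tregs the mevalonate route has been tied to suppressive function.

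Some facts of the whole series bear on every value below. Noc4l, the targeted gene, stood at 81.7 and 58.1 FPKM in cKO 2 and cKO 4 at 72 h, against 48.8 and 40.8 in Het 1 and Het 3, and at 124 in cKO 2 against 99.1 in Het 1 at 48 h. On the log2 scale the difference at 72 h came to 0.62 ± 0.14 (SE, limma adjusted p = 0.187). In each pair Noc4l was thus above Het where the label says cKO, against the label, and gene-level values cannot show the loss of single exons. Every direction below is therefore one for the libraries as labelled. The Treg markers Foxp3 and Il2ra were high in every library, at 147 to 336 and 1142 to 1554 FPKM. Depth, estimated from the spacing of low FPKM values, was 16500000 to 28800000 fragments per library. Neutrophil marker genes, 8 in all, summed to 344 and 75.5 FPKM in cKO 2 and cKO 4 at 72 h, against 38.5 and 21.6 in Het 1 and Het 3, and to 394 in cKO 2 against 44.0 in Het 1 at 48 h. In cKO 4 and Het 3, S100a8, S100a9, Camp, Lcn2 and Mpo were all listed at 0. Ltf made up nearly the whole sum there and in Het 1 at both times. Without Ltf, the other 7 summed to 237 FPKM in cKO 2 against 0.257 in Het 1 at 72 h. These sums were 0.132 in cKO 4 against 0.168 in Het 3, and 292 in cKO 2 against 0.465 in Het 1 at 48 h. At 72 h the 6 macrophage and monocyte markers summed to 43.1 FPKM in cKO 2 against 9.43 in Het 1. In cKO 4 the sum was 10.8 FPKM against 3.80 in Het 3. Most of the sums in cKO 4 and Het 3 came from Cd68, at 10.2 and 2.90 FPKM. Of the 6 markers 2 were higher and 3 lower in cKO 4 than in Het 3. The 6 B cell markers summed to 86.0 in cKO 2 at 72 h and to 8.18 to 23.6 in the other 5 libraries. The 6 proliferation markers went the other way, with sums of 921 and 938 FPKM in cKO 2 and cKO 4 at 72 h, against 1577 and 1396 in Het 1 and Het 3, and 1001 in cKO 2 against 1276 in Het 1 at 48 h, and each of the 6 was lower in the library labelled cKO in all 3 pairs. In bulk RNA, fewer cells with a transcript and less transcript per cell cannot be told apart.

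Per gene length, the highest levels of the set lay in the fatty acid branch and among the SREBP control genes. Fasn, the synthase that builds palmitate, was among the highest of the 33 members, at 160 to 248 FPKM over the 6 libraries. Acly, which cleaves citrate to supply cytosolic acetyl-CoA, lay at 142 to 232 FPKM, and the stearoyl-CoA desaturase Scd2 at 81.3 to 225 FPKM. The related desaturase Scd1 was far lower, at 7.58 to 36.7 FPKM. Of the sterol enzymes, Idi1, which isomerises isopentenyl diphosphate, and Cyp51, which demethylates lanosterol, were the most abundant in 5 of the 6 libraries, at 51.2 to 150 and 54.7 to 142 FPKM, while in cKO 4 at 72 h Ebp, at 53.7 FPKM, lay above Idi1. Fdps, which makes farnesyl diphosphate, was the lowest member at 2.12 to 5.61 FPKM and rested on 41 to 159 estimated fragments.

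The annotated start regions of the members were searched for simple sequence motifs. RefSeq windows of 250 bases before to 50 after each annotated start (build GRCm38.p6) were at hand for 27 of the 33 members. Shown here are the 250 bases before the start for the 3 sterol and 2 fatty acid members with the largest log2 fold change in size at 72 h among those with a window, 5′ to 3′ on the gene's own strand. Capitals mark matches, on either strand, to TCACNCCAC (a sterol regulatory element), CACGTG (an E-box, palindromic), CCAAT (the NF-Y box) and GGGCGG (the Sp1 GC box). Elovl6 lies at chr3:129532136-129532385 on the plus strand, Fads2 at chr19:10101504-10101753 on the minus strand, Lss at chr10:76531355-76531604 on the plus strand, Hmgcs1 at chr13:119690101-119690350 on the plus strand and Mvd at chr8:122443423-122443672 on the minus strand.
Elovl6: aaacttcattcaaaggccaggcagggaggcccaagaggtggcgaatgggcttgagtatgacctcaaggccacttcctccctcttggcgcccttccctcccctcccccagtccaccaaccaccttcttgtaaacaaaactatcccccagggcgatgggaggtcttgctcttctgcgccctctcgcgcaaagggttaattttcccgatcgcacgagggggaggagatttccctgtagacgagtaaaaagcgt
Fads2: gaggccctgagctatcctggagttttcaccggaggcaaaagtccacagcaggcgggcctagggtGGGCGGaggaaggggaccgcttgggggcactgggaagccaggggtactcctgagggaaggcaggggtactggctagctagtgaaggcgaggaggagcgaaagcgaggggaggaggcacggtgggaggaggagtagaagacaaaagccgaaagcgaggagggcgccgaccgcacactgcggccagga
Lss: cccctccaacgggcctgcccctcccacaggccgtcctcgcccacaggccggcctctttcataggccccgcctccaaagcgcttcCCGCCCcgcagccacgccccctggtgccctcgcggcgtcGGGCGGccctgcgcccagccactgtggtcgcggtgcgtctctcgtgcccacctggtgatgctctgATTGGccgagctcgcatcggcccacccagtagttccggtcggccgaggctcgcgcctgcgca
Hmgcs1: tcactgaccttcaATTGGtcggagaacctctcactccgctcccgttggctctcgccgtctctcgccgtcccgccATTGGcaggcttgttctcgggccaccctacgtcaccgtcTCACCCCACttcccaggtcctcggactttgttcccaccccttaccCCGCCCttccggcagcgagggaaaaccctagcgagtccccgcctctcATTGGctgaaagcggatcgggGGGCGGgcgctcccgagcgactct
Mvd: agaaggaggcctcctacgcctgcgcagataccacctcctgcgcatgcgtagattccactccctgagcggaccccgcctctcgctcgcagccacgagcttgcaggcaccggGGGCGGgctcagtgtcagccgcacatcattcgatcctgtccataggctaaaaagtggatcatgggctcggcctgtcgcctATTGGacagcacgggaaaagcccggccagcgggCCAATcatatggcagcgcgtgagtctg
The Hmgcs1 region held TCACCCCAC from base -137 to -129 before the start, with 3 CCAAT boxes and 2 GC boxes in the bases shown. The Elovl6 region held none of the 4 motifs, and the Fads2 region held 1 GC box, from base -186 to -181. Over the full windows, the CCAAT box was present for 14 of 15 sterol genes and 4 of 7 fatty acid genes, and in 37.4% of 32851 windows of all genes. The GC box was present for 14 of 15 sterol genes and 3 of 7 fatty acid genes, and in 35.7% of all windows. The E-box stood in 3 of 15 and 1 of 7, against 7.2% of all windows, and the sterol regulatory element in Hmgcs1 alone among the 27 members, against 1.2% of all windows. For genes with several annotated starts, a match in any of their windows was counted, so these counts per gene are not on the unit of the shares of windows. Per window, the CCAAT box stood in 63.9% and the GC box in 75.0% of the 36 windows of members. The E-box stood in 19.4% of them and the sterol regulatory element in 2.8%. A match is only a run of letters, and its absence says nothing of a factor.

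At 72 h, the elongase Elovl6 and the desaturase Fads2 had the lowest log2 fold changes of the set in the libraries labelled cKO, and the desaturase Scd1 had the highest. Fold changes are on the scale of log2(FPKM + 1), with the table as a term in limma's linear model. Of the 10 fatty acid genes, 7 were lower than in Het and 3 higher, with a median log2 fold change of -0.37, while the median over all 12488 genes tested was 0.08. No member passed limma's adjusted p of 0.05, nor did any of the 12488 genes (0%, smallest adjusted p = 0.106). At an unadjusted p of 0.05, 5 fatty acid genes were lower and 1 was higher, where 6.99% of all genes were lower and 10.3% higher. The fit rested on 4 libraries with 1 residual degree of freedom.

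Elovl6, which extends palmitate to stearate, stood at 33.6 and 39.0 FPKM in cKO 2 and cKO 4 at 72 h, against 75.4 and 77.7 FPKM in Het 1 and Het 3. It was lower in the library labelled cKO in both pairs, as were 24.6% of all genes. Its log2 fold change was -1.06 ± 0.13 (SE, n = 2 per genotype, limma adjusted p = 0.121), the lowest of the 33 members. Its log2 ratio was -0.98 in the pair of cKO 4 and Het 3 and -1.14 in the pair of cKO 2 and Het 1. The proliferation markers were lower with Elovl6 in every pair. Of the 10 fatty acid genes 6, Elovl6 among them, were lower in all 3 pairs, where 14.8% of all genes were. The part of the proliferation markers in these values was not tested. Across the alternative settings that kept all 4 libraries, the log2 fold change of Elovl6 ran from -1.15 to -0.99 and the limma adjusted p from 0.0928 to 0.231.

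The desaturases of polyunsaturated fatty acids were lower as well. Fads2, the delta-6 desaturase that opens this route, stood at 20.1 and 5.24 FPKM in cKO 2 and cKO 4, against 30.7 and 14.7 in Het 1 and Het 3. Its levels overlapped between genotypes across the tables but not within either table, with log2 ratios of -0.59 and -1.33. The value of 5.24 FPKM in cKO 4 rested on an estimated 126 fragments, whose exact Poisson 95% interval was 4.37 to 6.24 FPKM and covers counting error only. Its log2 fold change was -0.96 ± 0.23 (SE, limma adjusted p = 0.205). Fads1, the delta-5 desaturase of the next step, had 13.5 and 11.2 FPKM in cKO 2 and cKO 4 and 21.9 and 17.2 FPKM in Het 1 and Het 3. Its log2 fold change was -0.62 ± 0.13 (SE, limma adjusted p = 0.181), with -0.66 and -0.58 in the 2 pairs.

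Elovl5, which elongates polyunsaturated chains, had 125 and 170 FPKM in cKO 2 and cKO 4 and 202 and 207 FPKM in Het 1 and Het 3. The log2 ratio was -0.68 in the pair of cKO 2 and Het 1 and -0.28 in that of cKO 4 and Het 3. Acly had 173 and 142 FPKM in cKO 2 and cKO 4, and 232 and 182 FPKM in Het 1 and Het 3. Its log2 difference of -0.39 ± 0.12 (SE, limma adjusted p = 0.253) was close to the same in both pairs, at -0.42 and -0.36.

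The enzymes at the centre of palmitate synthesis did not share one pattern. Fasn was almost level in the pair of cKO 2 and Het 1, at 206 against 214 FPKM, and lower in cKO 4 than in Het 3, at 160 against 248 FPKM. Acaca, the acetyl-CoA carboxylase that makes malonyl-CoA, was higher in cKO 2 than in Het 1, at 37.2 against 32.7 FPKM, and lower in cKO 4 than in Het 3, at 22.8 against 25.6 FPKM. Scd2 split likewise, with 183 against 178 FPKM in the first pair and 81.3 against 111 FPKM in the other. Elovl1, which makes very long chains, differed little, with 75.0 against 72.5 and 71.9 against 71.2 FPKM, and its log2 fold change of 0.03 turned negative under quantile normalization and median centring, as that of Acaca (0.01) did.

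Scd1, which introduces the double bond of oleate, was the exception of the branch. It stood at 30.6 and 12.1 FPKM in cKO 2 and cKO 4, against 24.8 and 7.58 FPKM in Het 1 and Het 3. Within each table its cKO library stood above Het, although the tables themselves differed more than the genotypes. The log2 fold change was 0.45 ± 0.15 (SE, limma adjusted p = 0.274), the highest of the 33 members at 72 h.

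**Figure D1:**
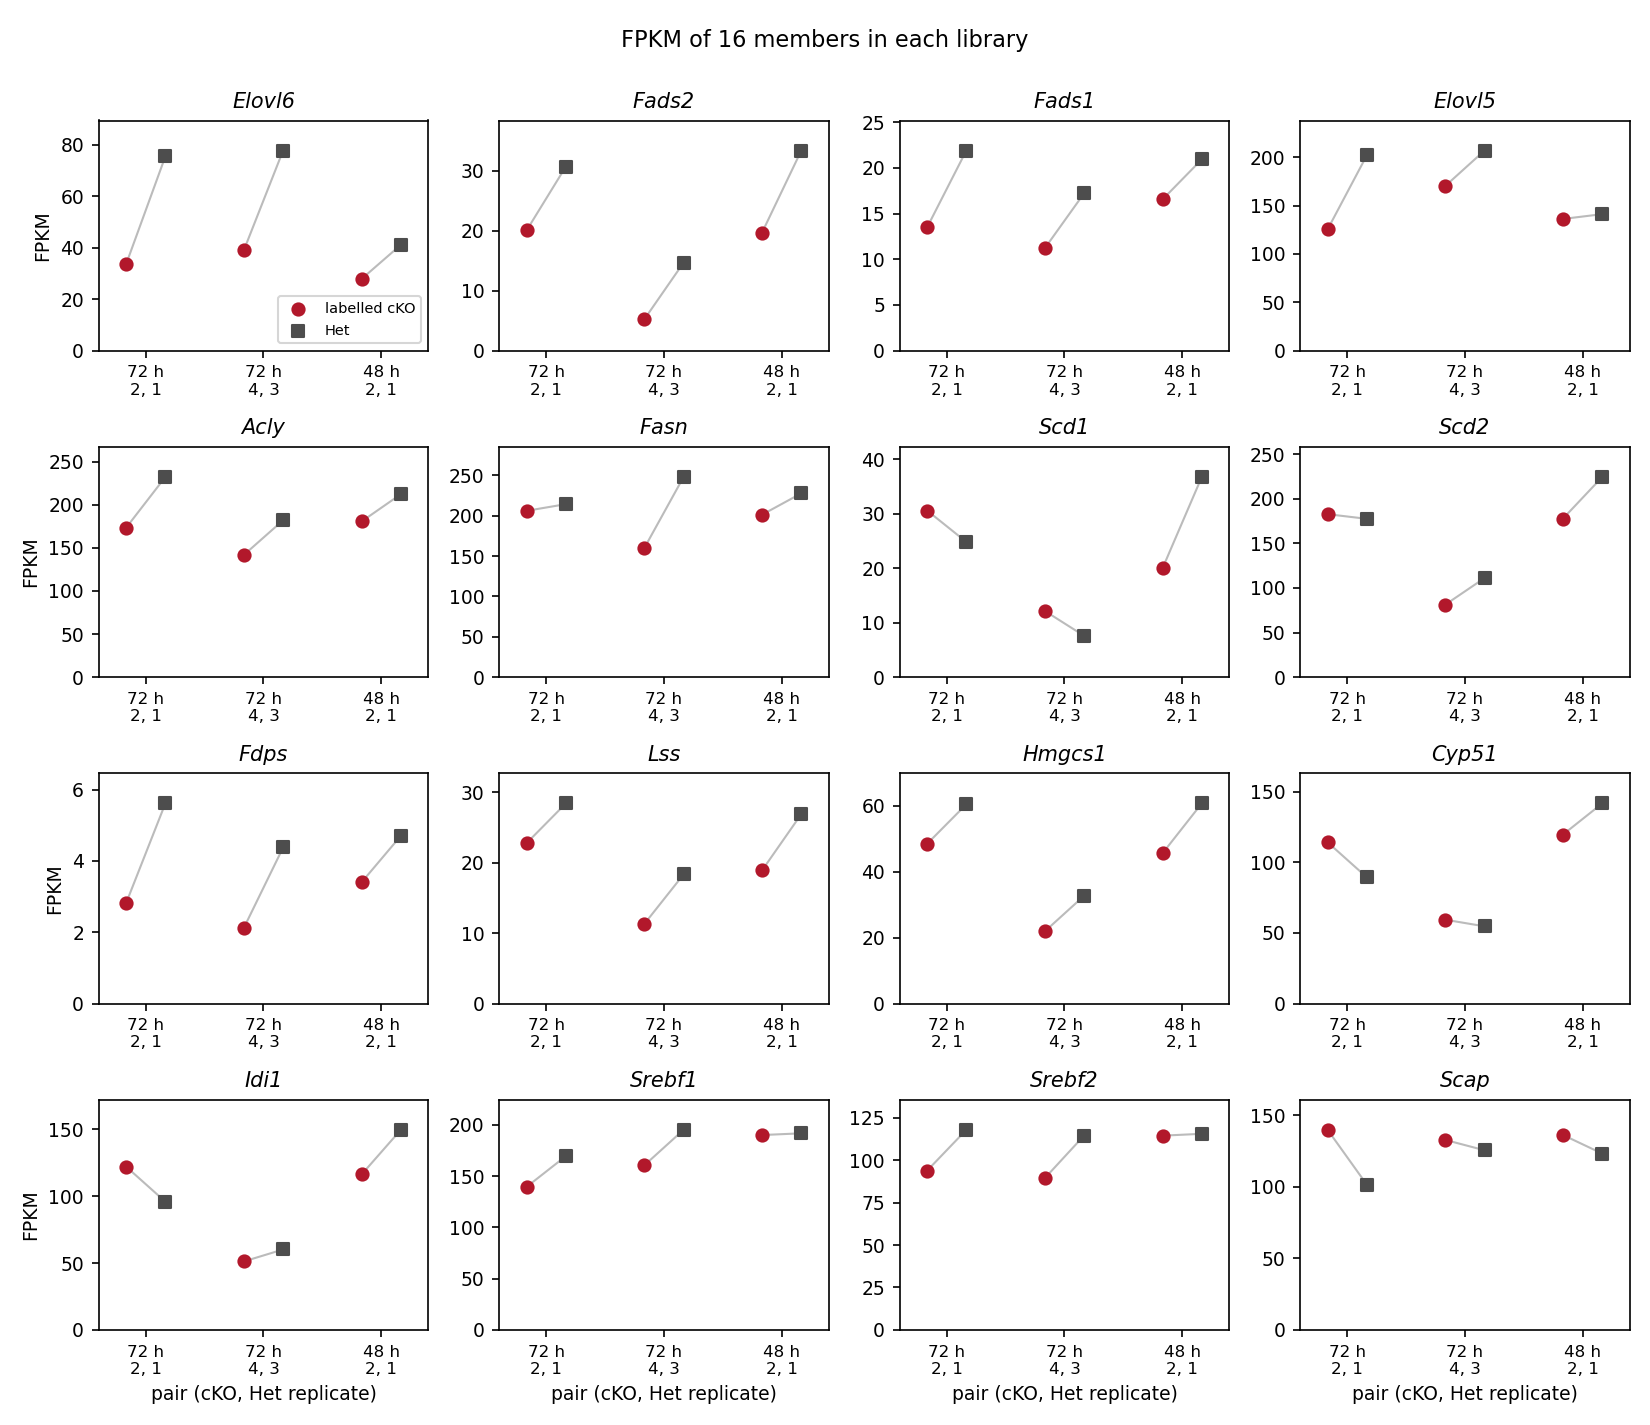
FPKM of 16 members in each of the 6 libraries, with circles for libraries labelled cKO, squares for Het and a line joining the 2 libraries of a pair. Elovl6, Fads2, Fads1 and Acly sit lower in the library labelled cKO in all 3 pairs, while Scd1 is higher at 72 h (30.6 and 12.1 against 24.8 and 7.58 FPKM) and lower at 48 h (20.0 against 36.7 FPKM).

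In the fit at 72 h, the sterol branch showed smaller values than the fatty acid branch, with directions more mixed. Of its 18 enzymes, 11 were lower and 7 higher in the libraries labelled cKO, with a median log2 fold change of -0.05. Under an unadjusted p of 0.05 lay 3, all lower, where 6.99% of all genes were lower and 10.3% higher. The branch median was -0.21 in the pair of cKO 2 and Het 1 and -0.10 in the pair of cKO 4 and Het 3. In the first of these pairs 15 of 18 sterol and 6 of 10 fatty acid genes were lower (44.3% of all genes). In the second, 11 of 18 and 8 of 10 were (37.7% of all genes). Of the 18 enzymes 9 were lower in both pairs, 8 took opposite signs and Cyp51 alone was higher in both, where 24.6% of all genes were lower and 42.4% higher in both pairs.

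Hmgcs1, which makes HMG-CoA ahead of mevalonate and whose start region held the sterol regulatory element, had 48.4 and 21.9 FPKM in cKO 2 and cKO 4, against 60.4 and 32.7 FPKM in Het 1 and Het 3. The 2 tables lay apart, but within each the library labelled cKO was lower, and the log2 fold change was -0.44 ± 0.14 (SE, limma adjusted p = 0.259). Lss, which closes squalene epoxide into lanosterol, had 22.8 and 11.3 FPKM in cKO 2 and cKO 4 and 28.4 and 18.3 FPKM in Het 1 and Het 3. Its log2 fold change was -0.48 ± 0.15 (SE, limma adjusted p = 0.264), with -0.31 and -0.65 in the 2 pairs. Fdps had 2.82 and 2.12 FPKM in cKO 2 and cKO 4, against 5.61 and 4.38 FPKM in Het 1 and Het 3. Its log2 difference of -0.79 ± 0.18 (SE, limma adjusted p = 0.192) was alike in both pairs, at -0.79 and -0.78.

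The early mevalonate enzymes and those around squalene leaned the same way with smaller values. Acat2, which joins acetyl-CoA units, stood at a log2 fold change of -0.19, the mevalonate kinase Mvk at -0.23 and the decarboxylase Mvd at -0.26. The squalene synthase Fdft1 stood at -0.21 and the squalene epoxidase Sqle at -0.36. Each of these 5 was lower in both pairs, but by unequal amounts. In the pair of cKO 2 and Het 1 the log2 ratio was -0.27 for Acat2, -0.32 for Mvk, -0.39 for Mvd, -0.37 for Fdft1 and -0.19 for Sqle, and in the pair of cKO 4 and Het 3 it was -0.11 for Acat2, -0.15 for Mvk, -0.12 for Mvd, -0.05 for Fdft1 and -0.53 for Sqle. Pmvk, the phosphomevalonate kinase, was at -0.22 in the pair of cKO 2 and Het 1 and at 0.10 in the pair of cKO 4 and Het 3.

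The enzymes after lanosterol had values nearer to 0 or above it. Cyp51 had 114 and 59.3 FPKM in cKO 2 and cKO 4, against 89.4 and 54.7 FPKM in Het 1 and Het 3, a difference of 0.23 ± 0.13 on the log2 scale (SE, limma adjusted p = 0.429). Dhcr7, which reduces dehydrocholesterol to cholesterol, had 44.7 and 33.8 FPKM in cKO 2 and cKO 4 and 46.4 and 25.8 FPKM in Het 1 and Het 3. It was level in one pair and higher in cKO 4 in the other. Tm7sf2, a sterol reductase, had 11.5 and 12.5 FPKM in cKO 2 and cKO 4, against 14.3 and 9.15 FPKM in Het 1 and Het 3, so that the pairs took opposite signs (-0.30 and 0.41). Msmo1, Nsdhl, Hsd17b7, Ebp and Sc5d, which remove methyl groups, reduce the ketone or shift and add double bonds of the sterol ring, lay between -0.05 and 0.03. The fitted values of Tm7sf2, Nsdhl, Hsd17b7 and Ebp, between 0.01 and 0.06, turned negative under quantile normalization and median centring. Idi1 took opposite signs as well, with 122 FPKM in cKO 2 against 95.8 in Het 1 and 51.2 in cKO 4 against 60.1 in Het 3, and its log2 fold change of 0.06 turned to -0.03 under median centring.

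The control genes were lower except Scap. Srebf2 had 93.8 and 89.4 FPKM in cKO 2 and cKO 4 at 72 h, against 118 and 114 FPKM in Het 1 and Het 3. Its log2 fold change was -0.34 ± 0.12 (SE, limma adjusted p = 0.288). Srebf1 had 140 and 161 FPKM in cKO 2 and cKO 4 and 170 and 195 FPKM in Het 1 and Het 3, a log2 difference of -0.28 ± 0.12 (SE, limma adjusted p = 0.334) that was -0.28 in each pair. The 2 SREBP genes were thus the steadiest of the set between pairs, together with Fdps, although neither passed the adjusted threshold. Insig1 had 77.9 and 49.6 FPKM in cKO 2 and cKO 4, against 80.5 and 59.1 FPKM in Het 1 and Het 3, and Insig2 had 34.1 and 38.7 against 44.2 and 40.0 FPKM. Both Insig genes lay lower within each table, Insig2 mainly in the pair of cKO 2 and Het 1 (-0.37, and -0.05 in the other pair). Scap had 140 and 133 FPKM in cKO 2 and cKO 4 and 102 and 126 FPKM in Het 1 and Het 3, a log2 difference of 0.27 ± 0.15 (SE, limma adjusted p = 0.424), with 0.46 and 0.08 in the 2 pairs.

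Set side by side, the fatty acid branch lay below the sterol branch in each pair of libraries. The difference of the branch medians, fatty acid minus sterol, was -0.03 in the pair of cKO 2 and Het 1 at 72 h, -0.31 in the pair of cKO 4 and Het 3 and -0.04 at 48 h. In 2 of the 3 pairs it was thus close to 0, and no test was made of it. Over the whole set, 22 of 33 members were lower at 72 h, where 39.0% of all genes were, and the split moved to 29 of 33 with median centring and 28 of 33 with quantile normalization. Lower members numbered 25 of 33 in the pair of cKO 2 and Het 1 (44.3% of all genes) and 23 of 33 in the pair of cKO 4 and Het 3 (37.7% of all genes). In both pairs alike, 19 of 33 members were lower (24.6% of all genes) and 4 higher (42.4% of all genes): Cyp51, Elovl1, Scap and Scd1.

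**Figure D2:**
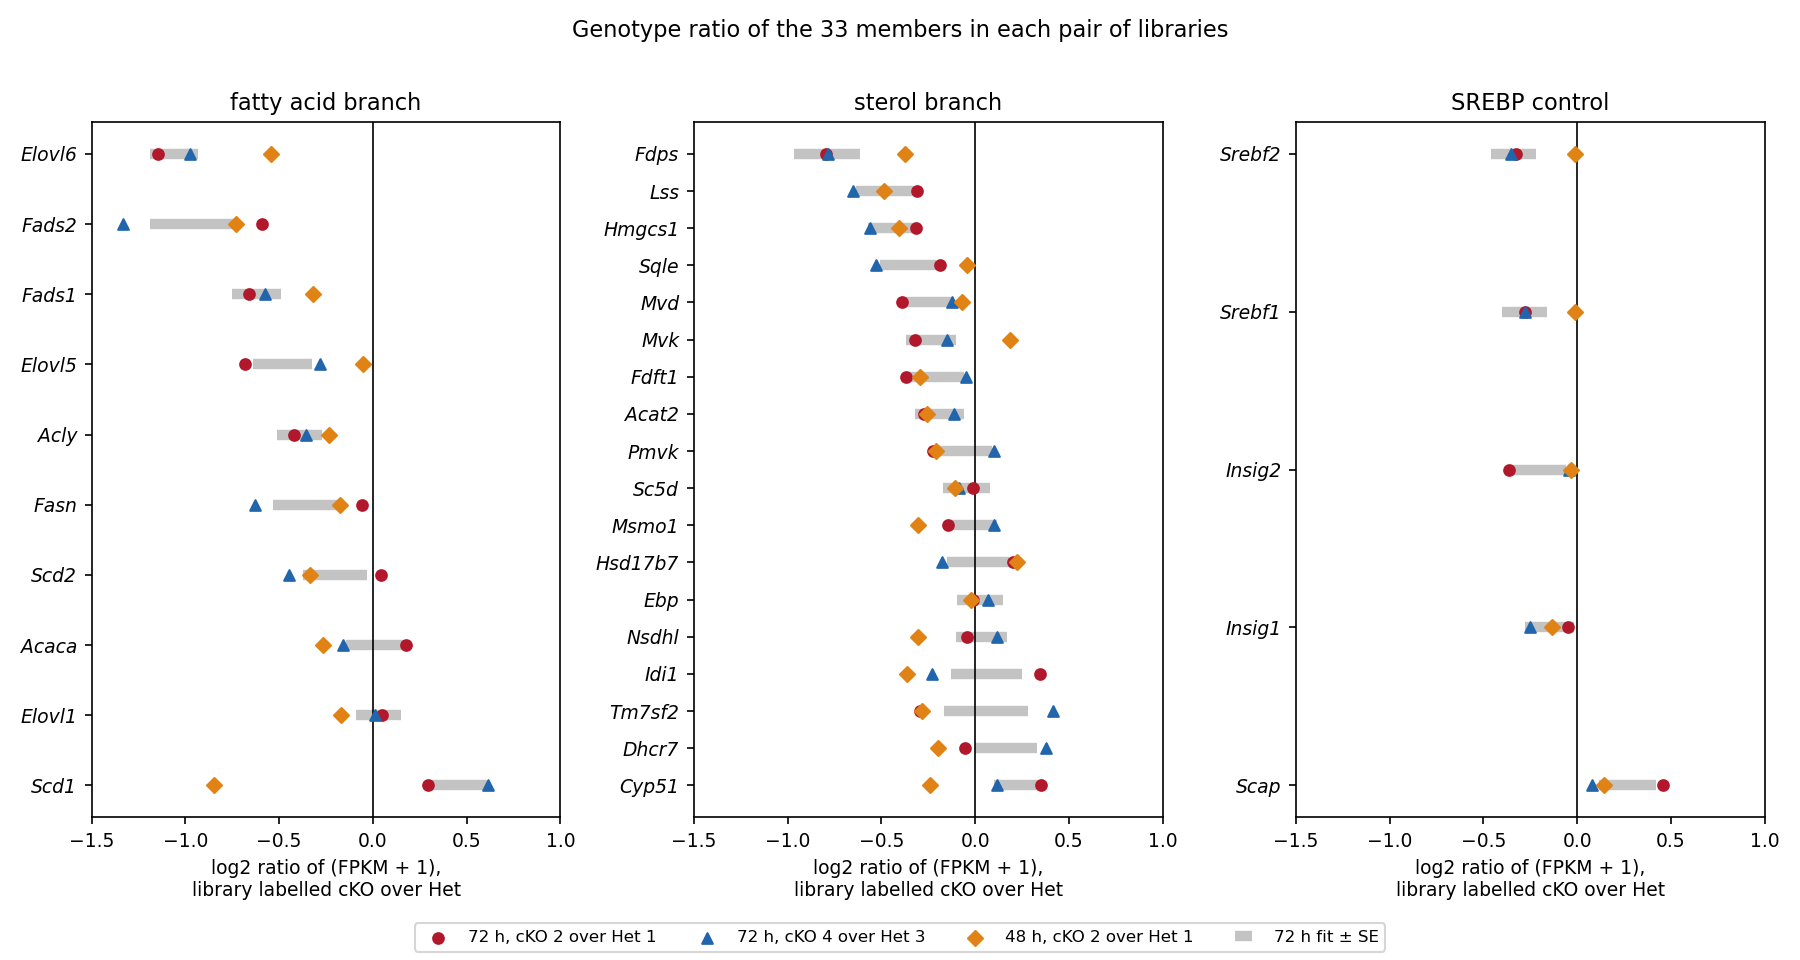
Log2 ratio of (FPKM + 1), library labelled cKO over Het, for the 33 members in each of the 3 pairs (symbols), with the 72 h estimate ± SE as a grey bar. Elovl6 and Fads2 lie farthest left in the fatty acid branch (-1.06 and -0.96 at 72 h), whereas most sterol enzymes after lanosterol lie around 0 with the pairs on either side.

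At 48 h, with 1 library per genotype and no test, the set leaned lower more evenly. In cKO 2, 30 of 33 members were lower than in Het 1, all 10 fatty acid genes and 16 of 18 sterol genes among them, where 50.5% of all 12064 genes were. The branch medians were -0.29 and -0.25 and the median of all genes -0.0027. Only Scd1 and Fads2 were at least 1.5-fold lower, where 1.87% of all genes were, and no member was that much higher, where 3.14% were. Scd1 stood at 20.0 FPKM in cKO 2 against 36.7 FPKM in Het 1 and Fads2 at 19.7 against 33.4 FPKM. Elovl6 stood at 27.8 against 41.1 FPKM, Lss at 18.9 against 26.9 FPKM and Hmgcs1 at 45.5 against 60.7 FPKM. Srebf1 and Srebf2 were level at 48 h, with 190 against 192 and 114 against 116 FPKM, whereas at 72 h both were lower. Mvk, Hsd17b7 and Scap were the 3 members above Het.

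A fit over all 6 libraries, 3 of each genotype, had terms for time and table. Its genotype term averages the 3 pairs, so 72 h, with 2 pairs, weighs more than 48 h. In it, 27 of 33 members were lower in the libraries labelled cKO, where 41.1% of all genes were. The log2 difference of Elovl6 was -0.89 ± 0.15 (SE, limma adjusted p = 0.343) and that of Fads2 -0.88 ± 0.17. Fdps was at -0.65 ± 0.17, Fads1 at -0.52 ± 0.12, Lss at -0.48 ± 0.12, Hmgcs1 at -0.43 ± 0.11 and Acly at -0.34 ± 0.10. These 7 were the members under an unadjusted p of 0.05, all lower, where 5.28% of all 12394 genes were lower and 8.04% higher at that threshold. None of the members or of all genes passed the adjusted threshold (0%). Without cKO 4, or without Het 3, 2 members were under the unadjusted threshold, and 7 genes passed the adjusted one. The 7 members named were lower in each of the 3 pairs, as were 18 of the 33 members, where 14.8% of all genes were. The pair at 48 h shares its replicate numbers with 1 pair at 72 h, so the 3 pairs may not be independent. Scap alone was higher in all 3 pairs, where 23.4% of all genes were.

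Whether the genotype difference itself changed with time was tested with an interaction term, and no gene passed (smallest adjusted p = 0.742, with 5.71% of genes under an unadjusted p of 0.05). The spread in this fit came from the 2 pairs at 72 h, with none measured at 48 h. Scd1 had the largest value of the members, since its log2 ratio was -0.85 at 48 h and 0.29 and 0.62 in the 2 pairs at 72 h. The difference was 1.30 ± 0.26 (SE, limma adjusted p = 0.744), the only member under an unadjusted p of 0.05. Elovl6 went the other way, with a genotype difference at 72 h that lay -0.52 ± 0.22 (SE, adjusted p = 0.856) from that at 48 h.

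Between 48 h and 72 h, measured in replicates 1 and 2 only, the sterol branch was mostly lower at the later time. Of the 18 sterol enzymes 13 had a negative time term in the fit over all 6 libraries, with a median of -0.10, where 49.7% of all genes had one, and the fatty acid genes were split 5 and 5 around a median of -0.003. The median of all genes was 0.0018. In both genotypes 9 sterol enzymes were lower at 72 h and 3 higher, where 27% of all genes were lower and 28.4% higher in both. No member passed the adjusted threshold (smallest adjusted p = 0.398), and 3 genes outside the set did (0.0242% of 12394, all higher at 72 h: Gzmb, Tgm2 and Cd8a, named after their values were seen). At an unadjusted p of 0.05, 1 member was higher and 1 lower, where 6.45% and 4.63% of all genes were. Without Het 1 at 72 h, neither member was under that threshold, and without either 48 h library none of the genes passed the adjusted one. With the replicate number as a block, 0 genes passed and 0 members were under the unadjusted threshold. The 5 CD8 T and NK cell markers, Cd8a among them, summed to 74.4 FPKM at 72 h against 8.42 FPKM at 48 h in cKO 2 and to 36.8 against 7.33 FPKM in Het 1, and their part in the time values was not tested.

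Elovl6 was that higher member. It stood at 33.6 FPKM at 72 h against 27.8 FPKM at 48 h in cKO 2, and at 75.4 against 41.1 FPKM in Het 1, with a time term of 0.56 ± 0.18 (SE, limma adjusted p = 0.402). The log2 time ratio was 0.26 in cKO 2 and 0.86 in Het 1. Elovl5 was lower at 72 h in cKO 2, at 125 against 136 FPKM, and higher in Het 1, at 202 against 141 FPKM. Insig1 was the lower member, at 77.9 FPKM at 72 h against 99.6 FPKM at 48 h in cKO 2 and 80.5 against 110 FPKM in Het 1, a time term of -0.40 ± 0.12 (SE, limma adjusted p = 0.398). Its partner Insig2 leaned the other way, at 34.1 against 31.3 FPKM in cKO 2 and 44.2 against 32.0 FPKM in Het 1.

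The most abundant sterol enzymes had similar levels at both times in the library labelled cKO and a lower one at 72 h in Het. Cyp51 stood at 114 FPKM at 72 h against 120 FPKM at 48 h in cKO 2, and at 89.4 against 142 FPKM in Het 1. Idi1 stood at 122 against 116 FPKM in cKO 2 and at 95.8 against 150 FPKM in Het 1. Scd1 was higher at 72 h in cKO 2, at 30.6 against 20.0 FPKM, and lower in Het 1, at 24.8 against 36.7 FPKM. The interaction terms of Cyp51, 0.48 ± 0.23 (SE, limma adjusted p = 0.856), and Idi1, 0.42 ± 0.33 (SE), did not pass. Srebf1 stood at 140 against 190 FPKM in cKO 2 and at 170 against 192 FPKM in Het 1.

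**Figure D3:**
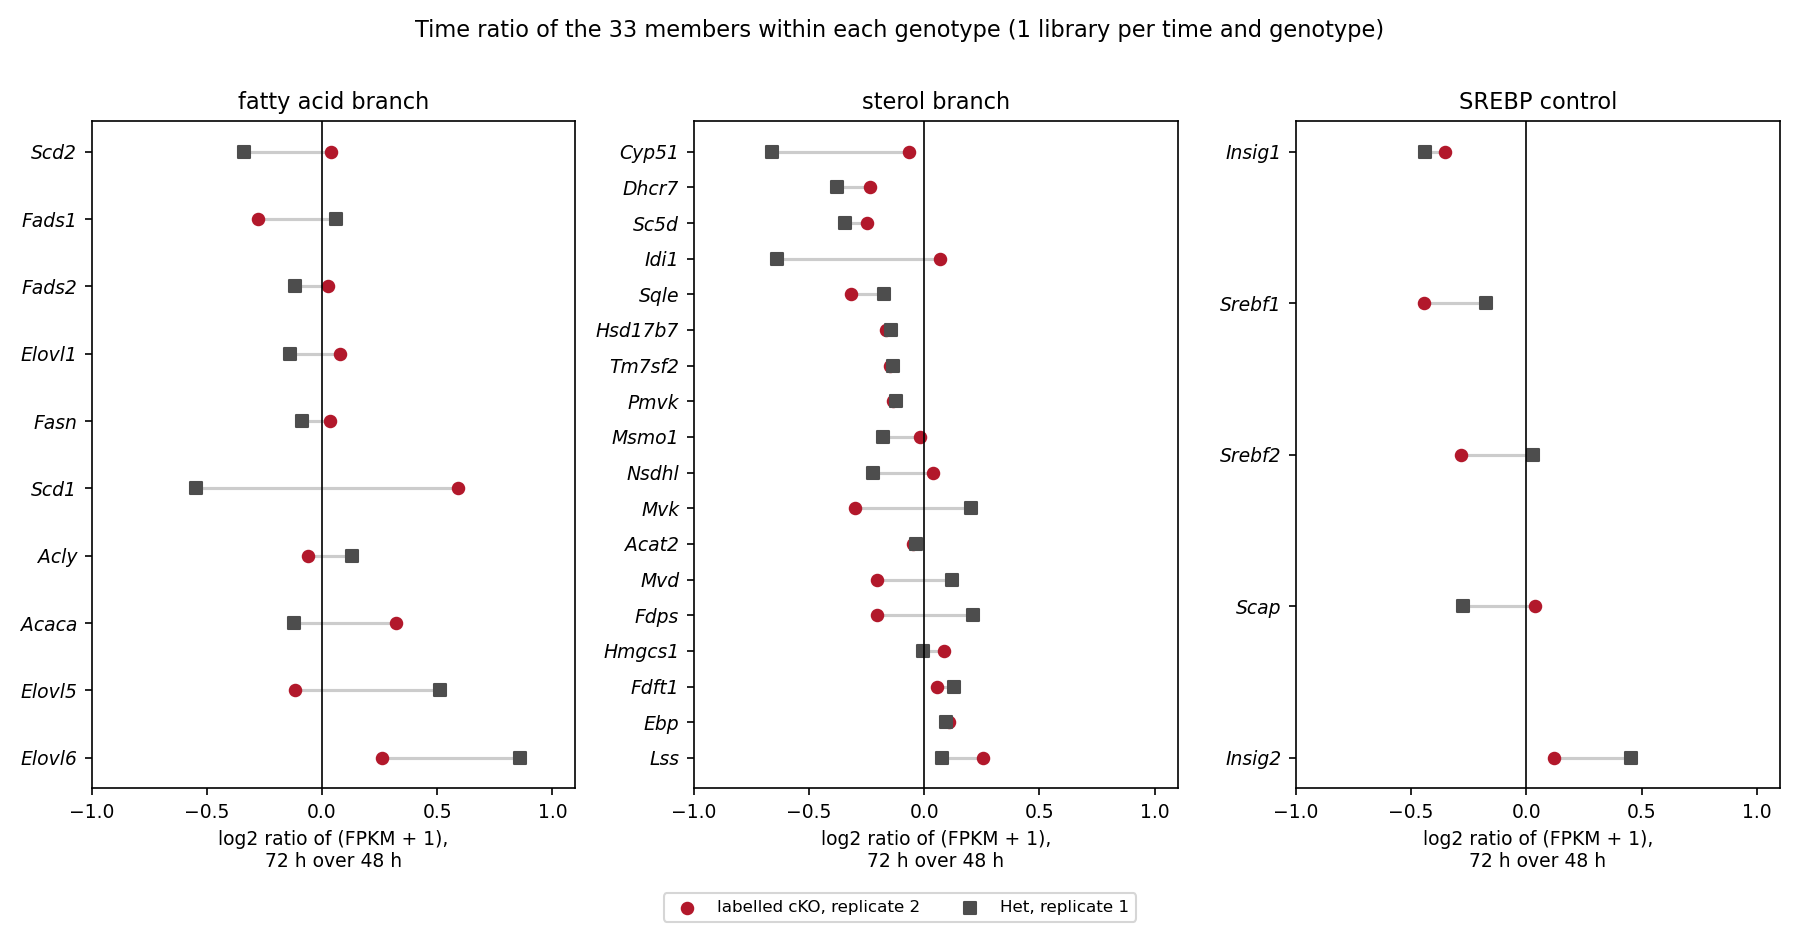
Log2 ratio of (FPKM + 1), 72 h over 48 h, for the 33 members in the libraries labelled cKO (replicate 2, circles) and Het (replicate 1, squares), each point resting on 1 library per time. Elovl6 lies at 0.26 in cKO and 0.86 in Het, and Cyp51, Idi1 and Scd1 lie higher in cKO than in Het.

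Other genes of lipid handling were counted at 72 h in lists of related genes, beside all genes, of which 61.0% were higher and 39.0% lower in the libraries labelled cKO. Other scalings were not run for these lists. Of the partners that process or degrade SREBP and its regulators, 6 of 9 were higher in the libraries labelled cKO, with a median log2 fold change of 0.12. Erlin1, which takes part in degradation of sterol-regulated proteins in the endoplasmic reticulum, had 12.4 and 13.2 FPKM in cKO 2 and cKO 4, against 8.25 and 7.44 FPKM in Het 1 and Het 3. The genotypes did not overlap.

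Of the transport, uptake and storage genes, 10 of 17 were lower, 4 of them under an unadjusted p of 0.05. At that threshold 6.99% of all genes were lower and 10.3% higher. Vldlr, a lipoprotein receptor, had 1.69 and 0.428 FPKM in cKO 2 and cKO 4, against 10.5 and 3.61 FPKM in Het 1 and Het 3. Stard4, a cytosolic sterol carrier, had 77.1 and 61.5 FPKM in cKO 2 and cKO 4, against 115 and 75.9 FPKM in Het 1 and Het 3, and the endoplasmic reticulum sterol transporter Gramd1a 113 and 142 against 155 and 207 FPKM. Tspo, of the outer mitochondrial membrane, was the fourth, at a log2 fold change of -0.70, with -1.11 in the pair of cKO 2 and Het 1 and -0.28 in the pair of cKO 4 and Het 3. Of the LXR receptors and targets, which respond to high sterol, 6 of 9 were lower. The exporter Abcg1 had 22.0 and 32.7 FPKM in cKO 2 and cKO 4 and 44.9 and 62.1 FPKM in Het 1 and Het 3, a log2 difference of -0.95 ± 0.13 (SE, limma adjusted p = 0.121). Mylip, the ligase that degrades lipoprotein receptors, stood at -0.55 and the receptor Rxra at -0.42. Of the genes that use farnesyl diphosphate for other isoprenoids 13 of 15 were higher (median 0.17). None of them was under an unadjusted p of 0.05, where 10.3% of all genes were higher. Pdss2, of coenzyme Q synthesis, stood at 0.49, with 0.69 and 0.29 in the 2 pairs.

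The fatty acid lists differed from one another. The list of fatty acid supply and the elongation cycle, most of it supply and kinase genes, was split, with 8 of 14 higher and a median of 0.03. Among its genes of the cycle that serves the Elovl enzymes, the log2 fold changes of Hacd2, Hacd3, Hsd17b12 and Tecr were 0.43, 0.50, 0.52 and -0.01. The 2 genes of the list under an unadjusted p of 0.05 were both higher, where 10.3% of all genes were higher and 6.99% lower. The dehydratase Hacd3 had 34.7 and 41.2 FPKM in cKO 2 and cKO 4, against 23.9 and 29.1 FPKM in Het 1 and Het 3, and the ketoreductase Hsd17b12 had 62.5 and 38.5 against 39.1 and 29.3 FPKM. Among fatty acid oxidation genes 16 of 20 were higher (median 0.14). Decr1, needed to oxidise polyunsaturated chains, had 27.7 and 24.9 FPKM in cKO 2 and cKO 4, against 16.4 and 13.1 FPKM in Het 1 and Het 3, and the isomerase Eci1 30.4 and 29.4 against 21.9 and 22.3 FPKM. Of the activation and lipid assembly genes, 12 of 18 were lower. The acyl-CoA synthetase Acsl6 had 1.86 and 0.214 FPKM in cKO 2 and cKO 4, against 12.9 and 8.71 FPKM in Het 1 and Het 3, while Lipe, a hormone-sensitive lipase, had 15.9 and 21.5 against 10.4 and 11.9 FPKM. Dgat2, which completes triglycerides, stood at a log2 fold change of 0.76. Its levels were low, at 4.97 and 2.73 FPKM in cKO 2 and cKO 4, against 2.19 and 1.425 FPKM in Het 1 and Het 3. Its counterpart Dgat1 stood at -0.64, with -1.44 in the pair of cKO 2 and Het 1 and 0.16 in the other pair. The limma adjusted p of the genes named from these lists ran from 0.106 upward, so none passed.

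**Figure D4:**
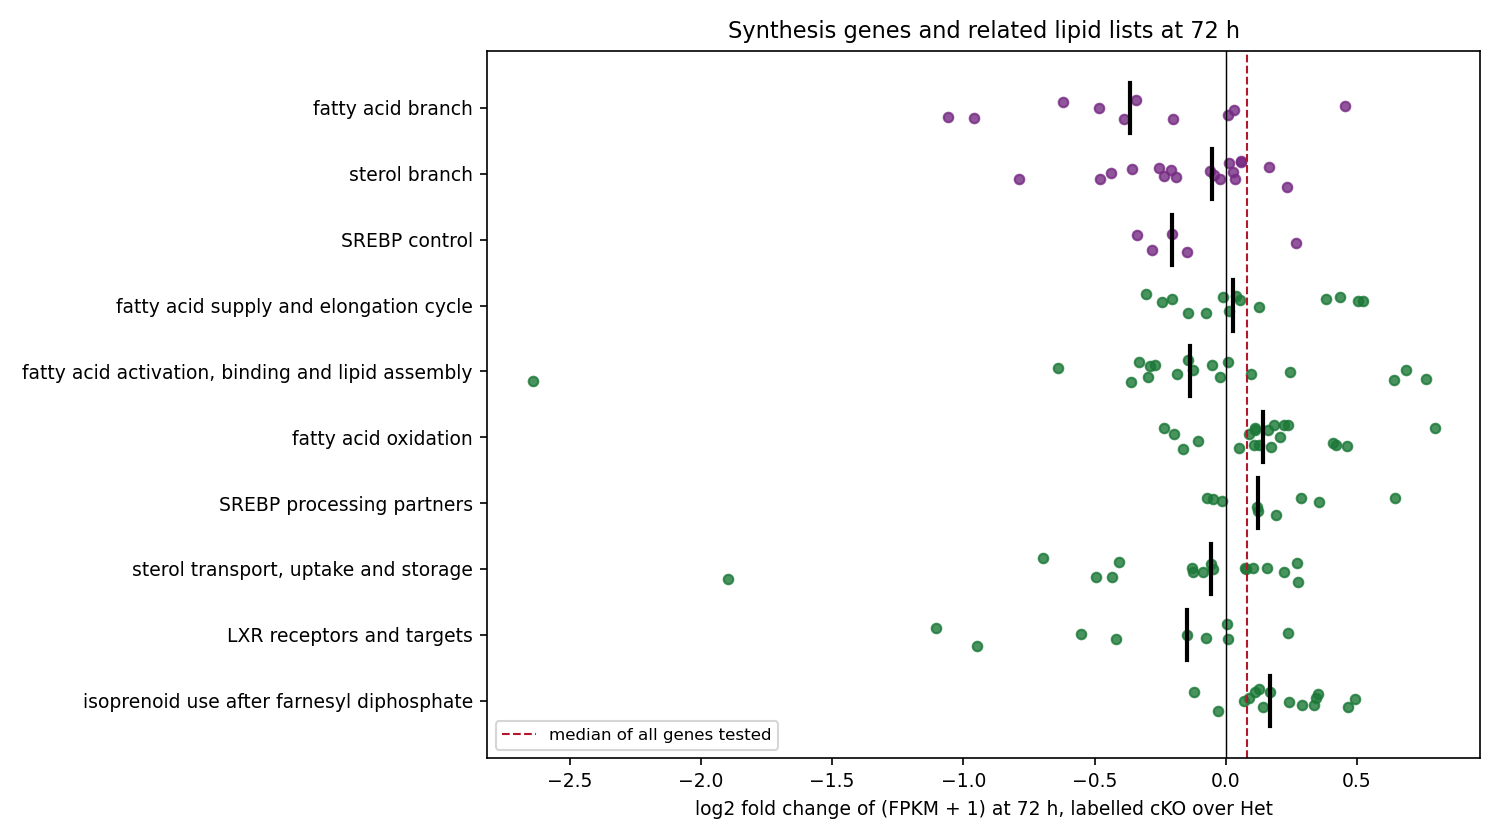
Log2 fold change of (FPKM + 1) at 72 h, libraries labelled cKO over Het, of every gene tested in the 3 groups of the set (purple) and in 7 lists of related lipid genes (green), with a black bar at each list's median. The fatty acid branch has the lowest median (-0.37). The medians of the isoprenoid, fatty acid oxidation and SREBP processing lists lie above the dashed line at the median of all genes (0.08).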

How the data were processed

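RNA of sorted and activated Tregs was sequenced in 6 libraries, made with a SMART-Seq v4 kit per the labels' protocols. The authors deposited FPKM in 2 tables with 47347 shared rows, and 47069 of these carried an Ensembl gene ID. Bowtie2 2.2.3, TopHat2 2.0.12, HTSeq 0.6.1 and the build mm9 are named in the submitters' processing notes, without roles. The sources used here do not state the annotation, gene lengths or strandedness, so reads of overlapping genes could have been shared. All 33 members matched by symbol. The members and lists were chosen with earlier results of these data known.

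Values were tested as log2(FPKM + 1) with limma 3.58.1 in R 4.3.3 (moderated, variance trend, Benjamini-Hochberg over all genes averaging 1 FPKM or more). This scale understates changes of low genes. The table was a term in every fit, and the fit at 72 h used 4 libraries and the others all 6. Simulated data with the same spread for all genes, unlike the real data, were used to test 2 fits. The fit at 72 h called 57% of 2-fold and 100% of 4-fold changes. The genotype fit over both times called 80% and 100%, and each made 8 false calls. No count test was run. Fragment numbers were estimated from the lowest FPKM with the mean annotated transcript length: 85.8% to 86.6% of low values were within 0.02 of a whole number, against 3.54% to 4.16% with lengths scrambled. All 33 members are named. Values per library are given for the genes with the highest and lowest fold change of each branch, the control genes and those with the largest time change, and from each related list for those with the smallest p, with some further members added after their values were seen. Some genes of the related lists are not reported here by name. Alternatives covered the pseudocount, filter, scaling, variance trend, table term, replicate block and each library. Tables and figures were made in Python 3.11.15 (pandas 2.3.3; numpy 2.4.6; figures by matplotlib 3.10.9).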

Additional observations from a re-analysis of the deposited data

Results flagged for a closer look

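For 4 members the genotype difference at 48 h, with 1 library per genotype, ran opposite to both pairs at 72 h, as it did for 28.8% of the 12488 genes tested. The values below are the difference at 72 h minus that at 48 h on the log2 scale, tested as an interaction term in limma over 6 libraries. For the desaturase Scd1 it was 1.3 ± 0.26 (SE, unadjusted p = 0.00867, limma adjusted p = 0.744). For the lanosterol demethylase Cyp51 it was 0.48 ± 0.23 (SE, limma adjusted p = 0.856), for the mevalonate kinase Mvk -0.42 ± 0.23 (SE, limma adjusted p = 0.856) and for the elongase Elovl1 0.2 ± 0.21 (SE, limma adjusted p = 0.875). None passed the adjusted threshold, and for Elovl1 the ratios at 72 h (0.05 and 0.01) were near 0.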

How the results depend on the processing

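At 72 h the direction of the 8 members with the largest fold change in size (Elovl6, Fads2, Fdps, Fads1, Elovl5, Lss, Scd1 and Hmgcs1) held under every alternative in which they were tested. The filter at a mean FPKM of at least 5 removed Fdps. With no filter on low values 8 genes passed the adjusted threshold in limma, none of them a member. Members higher at an unadjusted p of 0.05 numbered 0 with quantile normalization, median centring, no variance trend or no table term, and members lower numbered 4 with no variance trend and 3 with no table term. The sterol median was -0.15 with median centring. Quantile normalization turned Tm7sf2 (-0.0258), Nsdhl (-0.0493), Hsd17b7 (-0.0809), Ebp (-0.0215), Acaca (-0.0620) and Elovl1 (-0.0039). Median centring, which took the median of all genes to -0.01, turned Idi1 (-0.0338), Tm7sf2 (-0.0332), Nsdhl (-0.0580), Hsd17b7 (-0.0797), Ebp (-0.0647), Acaca (-0.0840) and Elovl1 (-0.0625). Leaving out a library at 72 h left 1 pair and no test. The sterol median then ran from -0.21 to -0.10 and the fatty acid median from -0.40 to -0.24. Members whose pairs differed in sign ran from -0.22 to 0.10 (Pmvk), -0.23 to 0.35 (Idi1), -0.14 to 0.10 (Msmo1), -0.18 to 0.20 (Hsd17b7), -0.16 to 0.18 (Acaca), -0.30 to 0.41 (Tm7sf2), -0.0449 to 0.11 (Nsdhl), -0.0106 to 0.0667 (Ebp), -0.0523 to 0.38 (Dhcr7) and -0.45 to 0.0417 (Scd2). Over both times, 3 members were lower at an unadjusted p with no table term. With 1 library left out, 0 to 7 genes passed the adjusted threshold, 2 to 10 members were lower and 0 to 1 higher at an unadjusted p, and the sterol median ran from -0.20 to -0.0536.

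For 72 h against 48 h, 1 gene passed with a pseudocount of 5, 0 with no filter and 0 with no table term, and 0 to 4 with 1 library left out. Members lower at an unadjusted p numbered 2 with no filter, quantile normalization, median centring or no table term. With 1 library left out, 0 to 4 were lower and 0 to 3 higher. The sterol median was -0.12 with median centring and -0.36 with no table term, and -0.11 to -0.0452 with 1 library left out. The fatty acid median was -0.14 with no table term and -0.10 to 0.11 with 1 library left out, Srebf2 ran from -0.29 to 0.0357 and Scap from -0.29 to 0.0539. Het 1 and cKO 2 share a number across times, so a replicate block could be fitted for time alone. Under it 0 genes passed, 0 members were higher and 0 lower at an unadjusted p, and the sterol median stayed at -0.10. Whether same-numbered libraries share animals is not given, and no paired analysis was possible between genotypes because they share no replicate number. The interaction had 0 members at an unadjusted p with no table term. The cause of these shifts was not tested. With 1 or 2 residual degrees of freedom a missed threshold does not show that values were alike, and Fdps rests on few fragments in each library.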
